A study of Mus musculus with 10 samples.

Results

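The 83 genes described here encode the proteins of the cytosolic ribosome. They were taken from the 23080 rows of the gene table as the protein-coding rows whose symbols follow the Rpl, Rps, Rplp or Rpsa naming, with the Rps6k kinases left out. There were 51 members of the large subunit and 32 of the small subunit. RNA came from the anterior fontanelle (AF) of mouse embryos at E18.5. The dissected piece held bone as well as the soft tissue of the suture, and brain and skin had been removed. There were 5 libraries labelled WT, which the study describes as littermate controls, and 5 libraries labelled NCC Fgfr2 KO, with the genotype Wnt1-Cre; Fgfr2fl/fl. Wnt1-Cre recombines the floxed alleles in neural crest cells and their descendants, and the other cells of the tissue keep Fgfr2. The study describes mutants and controls as littermate pairs, but the labels do not say which libraries form a pair. They also do not say whether each library came from 1 embryo or from pooled tissue, so p-values measure only the spread between these libraries.

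Each ribosome carries 1 copy of most of these proteins, and cells adjust their supply together. Many of the genes begin transcription at a C followed by a run of pyrimidines, the 5′ terminal oligopyrimidine (TOP) element, through which mTOR and LARP1 control translation. They are also among the genes most often copied into the genome as processed pseudogenes, intronless copies of spliced mRNA. In people, loss of 1 allele of several ribosomal proteins causes Diamond-Blackfan anaemia, and in mice some members are known for skeletal or pigment phenotypes.

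Libraries held 20774667 to 28515434 counts, of which 18.7 to 33.6% lay in ribosomal RNA rows. KO-labelled replicate 4 (18.7%) and WT-labelled replicate 5 (20.9%) stood apart from the other 8 libraries (26.1 to 33.6%). They also had the lowest levels of the pseudogene row Rpl10-ps1, at 12.2 and 15.6 CPM, against 84.7 to 173 CPM in the others. Levels below are CPM, counts relative to library totals scaled by the TMM method. Of the targeted gene, Fgfr2, the libraries labelled KO held more counts than those labelled WT: 299, 273, 325, 338 and 357 CPM against 200.2, 234.6, 175.8, 195.4 and 191.6 CPM. The groups did not overlap (log2 fold change 0.67 ± 0.09 SE, edgeR adjusted p = 0.0487). The fold change was above 0 in all 22 alternative fits, from 0.631 to 0.747, but the call held in 9 of them and was lost in 13, among them 8 of the 10 that left out 1 library. Adjusted p ran from 4e-10 with DESeq2's Wald test to 0.517 without KO-labelled replicate 4 and WT-labelled replicate 5, and was 0.427 with the replicate number as a block. A higher total is not what a KO label alone would lead a reader to look for. However, a gene total does not separate a recombined transcript from an intact one, so it cannot check the label. Libraries are therefore called WT-labelled and KO-labelled throughout, and every direction below rests on those labels. In the same libraries all 13 osteoblast markers read had a fitted change below 0 and all 4 fontanelle connective tissue markers had one above 0 in the KO-labelled group. Sp7 and Scx are among these markers. For mutants at E18.5, the study reports by in situ hybridization a reduced Sp7 signal and a wider domain of Scx.

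Sequences are shown first because they bear on every value of these genes. Among the 61 members with a pseudogene row of at least 100 counts on average and a transcript in GENCODE M21, the coding sequence was identical to the largest such row over a median of 99.6% of its bases (lowest 94.0%), and 16 members did not differ from it at any coding base. The reads were 50 bases long. In the pairs that follow, capitals mark the bases that differ within the 60-base coding stretch with the most differences, printed 5′ to 3′ for the gene and then for its pseudogene row. Bases are numbered from the A of the start codon of the gene. The first pair, bases 370 to 429, is Rps13, a small-subunit protein, which differs from Rps13-ps1 at 2 of 453 coding bases.
Rps13: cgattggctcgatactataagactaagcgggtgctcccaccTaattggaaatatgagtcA
Rps13-ps1: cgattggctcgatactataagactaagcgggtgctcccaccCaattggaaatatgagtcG
The second pair, bases 1 to 60, is Rpl3, a large-subunit protein near the peptidyl transferase centre, which differs from Rpl3-ps1 at 2 of 1209 coding bases.
Rpl3: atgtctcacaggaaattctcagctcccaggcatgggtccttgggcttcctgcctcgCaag
Rpl3-ps1: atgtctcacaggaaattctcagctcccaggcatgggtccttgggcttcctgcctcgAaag
The third pair, bases 388 to 447, is Rplp0, the base of the ribosomal stalk, which differs from Gm8730 at 12 of 951 coding bases.
Rplp0: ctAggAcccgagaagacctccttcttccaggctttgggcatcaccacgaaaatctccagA
Gm8730: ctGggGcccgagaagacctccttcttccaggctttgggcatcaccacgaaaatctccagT
For Rpl5, which carries 5S rRNA into the large subunit, all 891 coding bases are the same in Gm15500, so the first 60 stand for both.
Rpl5 and Gm15500: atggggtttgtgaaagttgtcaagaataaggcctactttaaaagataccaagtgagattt

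The counts of these genes were divided between rows. In the table, 66.4% of all values were whole numbers but only 4.58% of the members' values were, and 66 members had no whole value in any library. A median of 55.4% of the 50-base stretches of a member's transcript occurred in another annotated gene. For 77 members, 548 pseudogene rows were matched by such shared stretches or by name, and a member's row plus its matched rows is called a family sum below. The median member held 78% of its family sum in its own row, 33 members held over 90% and 25 held under 50%.

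The most divided genes held a small share of their family sum under their own names. Rps13 held 1.11% of its family sum, with 2.60, 2.68, 2.64, 3.23 and 2.37 CPM in the WT-labelled libraries, against family sums of 265, 270, 273, 267 and 235 CPM. Rpl5 held 3.84%, and Gm15500, at chr7 on the minus strand, held 17590 counts on average, the most of any row of that family. Rpl35a held 4.02%, Rpl12 5.38%, Rps7 6.68% and Rpl10 8.18%. For Rps7 this share, and every family sum given below, rests on Rps7-ps3, at 12010 counts on average. That row was matched by name alone, and its sequence was not compared. Most counts of Rpl10, an X-linked large-subunit protein, were in Rpl10-ps3, an intronless row on chromosome 9 that the table types as protein coding. A set of 5 rows matched to Rpl35a, among them Rpl35a-ps2 and Gm10243, had equal rounded counts in every library, at 905 on average.

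**Figure D1:**
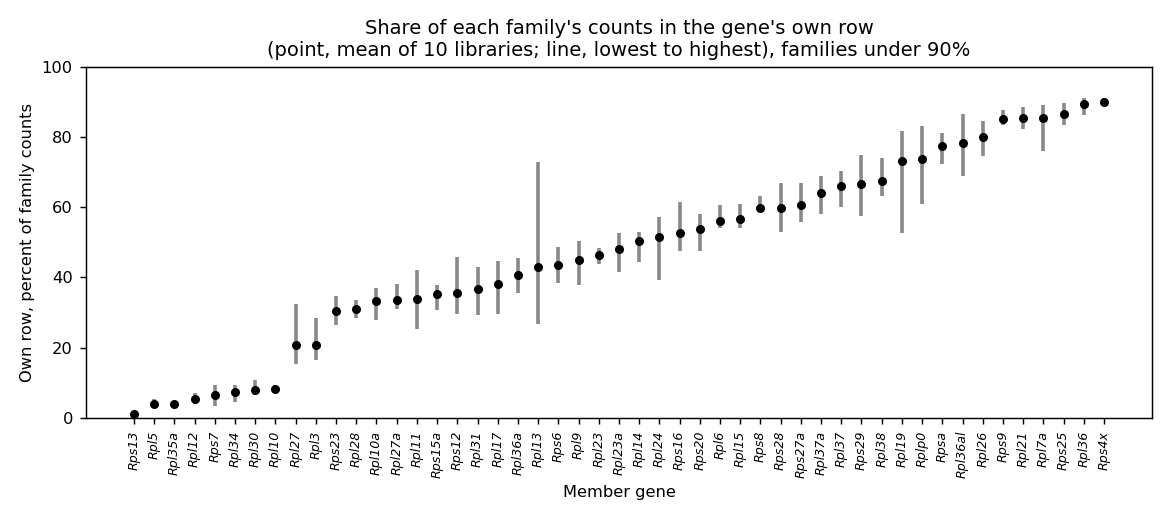
Percent of each family sum found in the gene's own row, for members with a mean under 90% that are reported by name. Points are means over 10 libraries and lines run from the lowest to the highest library, with Rps13 lowest at 1.11% and the widest line for Rpl13.

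The division was not constant between libraries. Rpl13, a large-subunit protein, held 26.7% of its family sum in KO-labelled replicate 1 and 73% in KO-labelled replicate 4, whereas the WT-labelled libraries ranged from 37.7 to 45.6%. Its own row thus ran from 154 to 429 CPM in the KO-labelled libraries, while its family sum ran only from 543 to 628 CPM there. Rplp0 held 80.2 to 82.3% in WT-labelled replicates 1, 3, 4 and 5 and 61.3% in replicate 2. Among KO-labelled libraries it held 80.9 and 83.1% in replicates 1 and 4 and 60.8 to 62.9% in replicates 2, 3 and 5. These 2 levels occurred in both groups, and the source of the division was not tested.

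Levels of the members were compared per kilobase of transcript. Own rows of the 82 tested members ran from 4.76 to 1481 CPM per kb, a 311-fold range, with a median of 295. The highest were Rps24 (1481 CPM per kb), Rpl41 (1295) and Rplp1 (1012), and the lowest were Rps13 (4.76), Rpl39l (13.3) and Rpl5 (14.1). These levels depend on the transcript taken for the length. That of Rpl5 had 2045 bases, of which 891 were coding, so its rank may be too low. Family sums lay closer together. The ratio of the upper to the lower quartile was 4.36 for own rows and 1.74 for family sums, and the SD of the log2 level was 1.70 and 1.17. Without the 5 tested paralogs (Rpl7l1, Rpl22l1, Rpl36al, Rpl39l and Rps27l), the SD was 1.62 and 0.842 over 77 genes. By family sum Rps13 stood at 426 and Rpl5 at 366 CPM per kb, where the quartiles of family sums were 393 and 685 and the median was 492. Rpl39l stayed at 13.2, since it had no matched rows. Many matched rows did not always bring a gene into this range. Rpl7a, Rps2, Rpl21 and Rpl29, with 49, 38, 27 and 20 matched rows, stayed at 135, 91.2, 122 and 92.4 CPM per kb. Their own rows held 85.6, 93.1, 85.2 and 95.1% of the family sum.

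Paralogs, genes that encode a second version of a subunit, were low, but low levels were not confined to them. By family sum Rpl22l1 and Rpl36al stood at 126 and 120 CPM per kb. Rpl35, Rps2 and Rpl29, which are not on the paralog list, stood lower, at 60.5, 91.2 and 92.4 CPM per kb. Rpl3l, the striated muscle form of Rpl3, held 1 to 7 counts in a library and was the 1 member left out of the test. Rpl39l, a testis-enriched form of Rpl39, had 7.30, 8.23, 8.63, 7.11 and 7.35 CPM in the WT-labelled libraries and 6.83, 5.05, 5.65, 8.39 and 8.35 CPM in the KO-labelled ones. Of the 5 KO-labelled values, 3 lay below all WT-labelled values and the other two lay within their range (log2 fold change -0.17 ± 0.15 SE, edgeR adjusted p = 0.816), and the log2 fold change was -0.0759 without KO-labelled replicate 2, -0.104 without replicate 3 and -0.268 without both KO-labelled replicate 4 and WT-labelled replicate 5. Rps27l, a p53-induced form of Rps27, had 23.0 ± 0.994 CPM (SD, n = 5) in WT-labelled and 21.4 ± 1.36 CPM in KO-labelled libraries (log2 fold change -0.10, edgeR adjusted p = 0.718). Rpl22l1 stood at 123 CPM per kb against 412 for Rpl22. Rpl36al had 51.1 ± 5.83 CPM in WT-labelled and 47.3 ± 7.97 CPM in KO-labelled libraries (edgeR adjusted p = 0.857). Rpl7l1 had 44.0 ± 1.67 and 44.6 ± 3.67 CPM (edgeR adjusted p = 0.963).

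The first question was whether the summed RNA of these genes differed between the 2 groups. Own rows made up 2.95, 3.05, 3.12, 3.05 and 2.87% of counts outside ribosomal RNA in the WT-labelled libraries. In the KO-labelled libraries they made up 2.54, 2.83, 2.84, 3.10 and 2.87%. The means were 3.01 ± 0.101% and 2.84 ± 0.200% (SD, n = 5 each). In bulk tissue, fewer cells of a type and less RNA per cell cannot be told apart. The groups overlapped, with KO-labelled replicate 1 lowest of all 10 and replicate 4 the second highest. With matched pseudogene rows added, the share was 4.56 ± 0.129% and 4.29 ± 0.235%. The pseudogene rows by themselves made up 1.51 to 1.60% in WT-labelled and 1.39 to 1.48% in KO-labelled libraries and did not overlap. The difference in the own-row share was -0.174 percentage points with all libraries, -0.100 without KO-labelled replicate 1 and -0.241 without KO-labelled replicate 4.

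**Figure D2:**
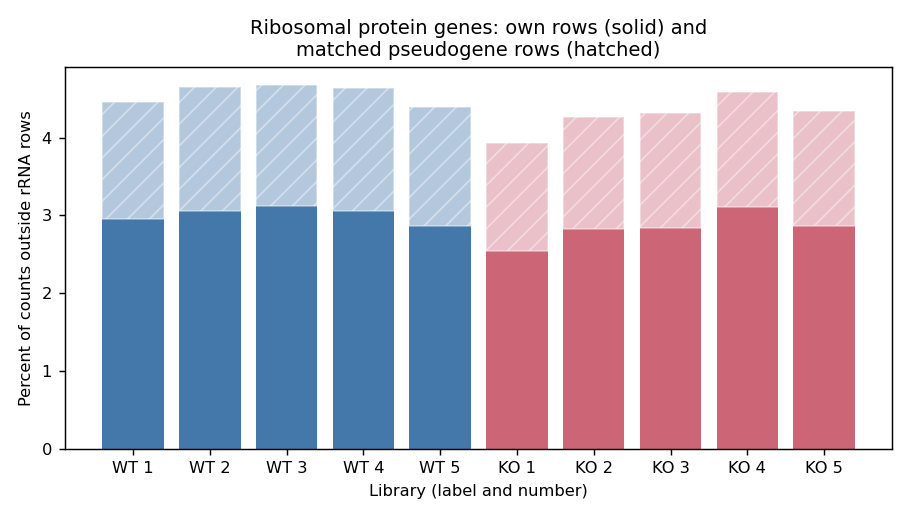
Share of counts outside ribosomal RNA rows in each library, with own rows solid and matched pseudogene rows hatched. The lowest library is KO 1, at 2.54% for own rows and 3.93% with pseudogene rows.

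No single member passed the test. At an adjusted p under 0.05, edgeR's quasi-likelihood test called 0 of 82 members, against 0.0184% of the 16267 genes tested, and the lowest adjusted p of a member was 0.522. At an unadjusted p under 0.05 it gave 6 members, 7.32% of them, against 7.49% of all genes, so the share of members was near the background. Of these, 5 members were lower in KO-labelled libraries, among them Rps27, Rps15, Rpl15 and Rpl28, against 3.82% of all genes. Rpl3 was higher (1 member, against 3.68%). DESeq2's Wald test also called 0 members, with 8 at an unadjusted p under 0.05, against 0.602% and 7.66% of all genes. By family sums edgeR again called 0 of 82, against 0.0186% of genes, and at an unadjusted p under 0.05 it gave 8 members, against 7.43%. All 8 were lower, against 3.37% of genes, and 0 were higher, against 4.06%. These counts moved with single libraries. Without KO-labelled replicate 4 they were 14 by own rows and 22 by family sums, and without KO-labelled replicate 1 or 2, or WT-labelled replicate 4, they were 3 in both forms. Without WT-labelled replicate 3 they were 3 and 4, and without WT-labelled replicate 5 they were 9 and 13. By family sums they were also 5 without WT-labelled replicate 1 or 2. Of all genes, 7.90% and 7.95% had such a p without KO-labelled replicate 4, 6.35% and 6.41% without WT-labelled replicate 5, and 5.19 to 8.34% and 5.26 to 8.33% over the 10 fits that left out 1 library. Without both KO-labelled replicate 4 and WT-labelled replicate 5, the libraries with the lowest share of ribosomal RNA rows, 13 members by own rows and 18 by family sums had an unadjusted p under 0.05, against 6.35% and 6.37% of all genes, and 0 passed in either form. The part of that share in these counts was not tested. A p above the threshold does not show that levels were the same.

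The direction was shared by most members, and the size was small. The fitted log2 fold change was below 0 for 73 of 82 members, against 49.7% of all genes, and the median was -0.09, against 0.00 over all genes. Members are measured in the same 10 libraries and are not independent, so this count is a description. The large-subunit median was -0.09 over 50 genes and the small-subunit median was -0.09 over 32. For scale, the middle 50% of all genes lay between -0.09 and 0.10. By family sums 79 of 82 members were below 0, against 47% of all genes in that fit, with a median of -0.09, and the range narrowed from -0.23 to 0.35 to -0.18 to 0.02. Summing over the family also lowered the median standard error of a log2 fold change from 0.085 to 0.070.

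**Figure D3:**
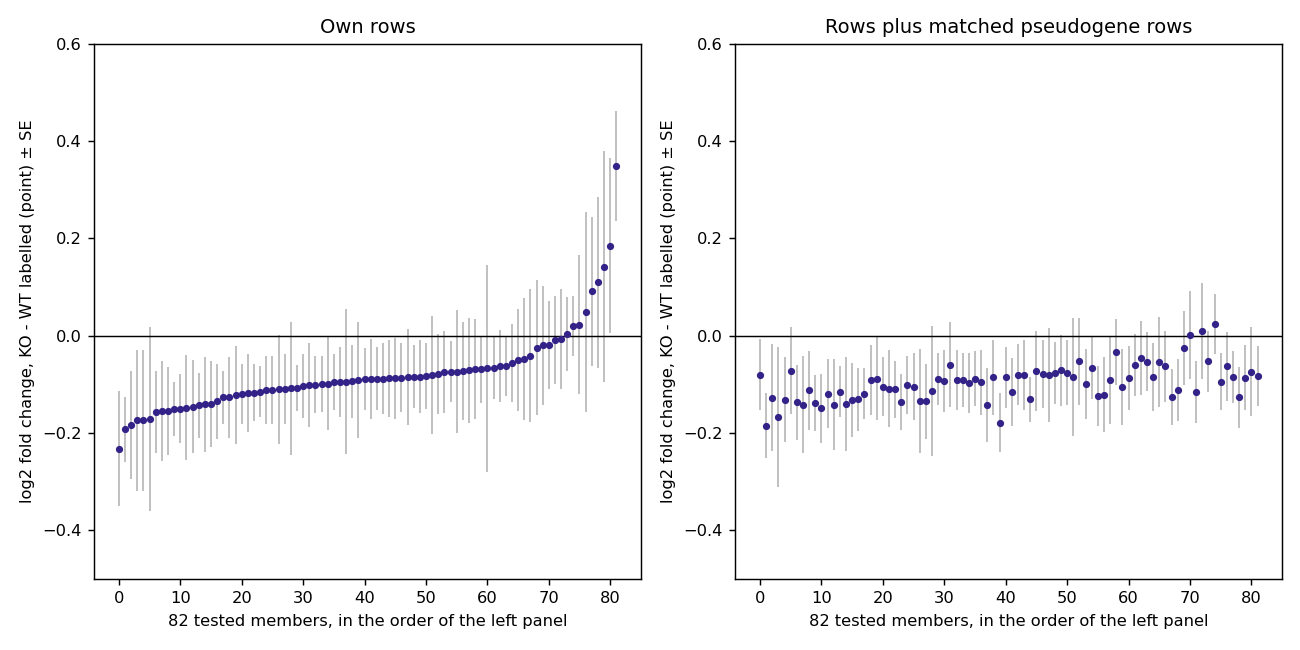
Log2 fold change of KO-labelled against WT-labelled libraries with its standard error for 82 members, from own rows (left) and family sums (right) in the same order. Own rows run from -0.23 to 0.35, and family sums from -0.18 to 0.02.

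The shift did not spread evenly over the libraries. In family sums, 47 of 82 members were at their lowest in KO-labelled replicate 1 and 19 in replicate 2. The median member stood -0.17 and -0.14 on the log2 scale from its mean in these 2 libraries, against 0.01, 0.05 and 0.02 in KO-labelled replicates 3, 4 and 5. In the WT-labelled libraries it stood at 0.03, 0.04, 0.08, 0.09 and -0.02. KO-labelled replicate 4 held the highest value of 22 members and the lowest of 9. Without KO-labelled replicate 1 the median over own rows was -0.05, with 61 of 82 members below 0. By family sums without it the median was -0.07, with 76 of 82 below 0. Without both KO-labelled replicate 4 and WT-labelled replicate 5 the medians were -0.133 and -0.137, with 78 and 82 of 82 below 0.

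**Figure D4:**
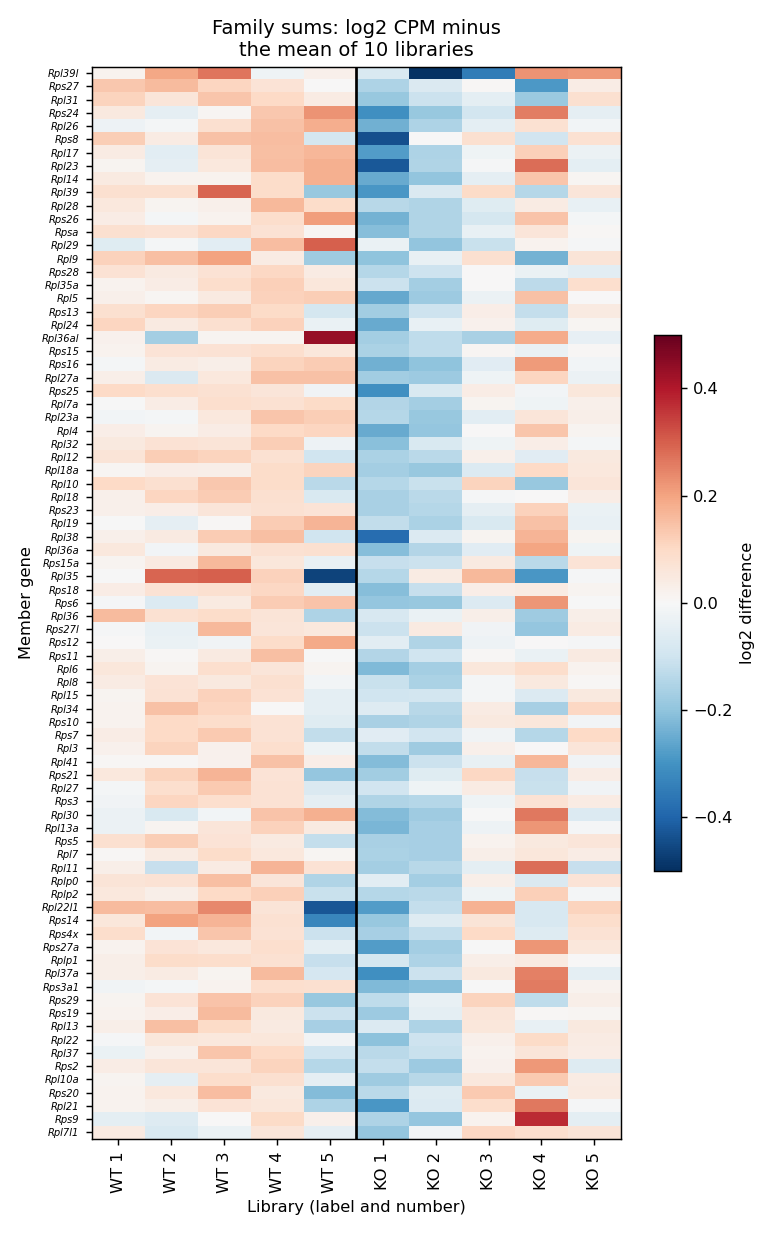
Log2 CPM of each family sum minus its mean over 10 libraries, with the genes reported by name in rows and libraries in columns, ordered by the KO-labelled mean. KO 1 and KO 2 are below 0 for most genes, with medians of -0.17 and -0.14.

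Rpl3 was the only member higher at an unadjusted p under 0.05. Its row, chr15:80077791-80091868 on the minus strand of mm10, had 104, 107, 113, 105 and 111 CPM in the WT-labelled libraries and 114, 141, 108, 169 and 157 CPM in the KO-labelled ones. Of the 5 KO-labelled values, 4 lay above every WT-labelled value (log2 fold change 0.35 ± 0.11 SE, edgeR p = 0.00983, adjusted p = 0.522, exact two-sided permutation p = 0.0317). Rpl3-ps1, an intronless row on the X chromosome, went the other way, at means of 506 and 439 CPM (log2 fold change -0.21 ± 0.07 SE, edgeR adjusted p = 0.594). The family sum was 605, 643, 604, 632 and 586 CPM in WT-labelled and 547, 527, 606, 596 and 621 CPM in KO-labelled libraries, and the groups overlapped. Its log2 fold change was -0.08 ± 0.06 SE, opposite in sign to that of the own row.

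The other 4 members with the highest fold changes overlapped between groups and, like Rpl3, were below 0 by family sum. Rpl30 had own-row values of 13.5, 10.9, 13.3, 12.1 and 12.8 CPM in WT-labelled and 9.33, 15.9, 14.6, 20.4 and 10.9 CPM in KO-labelled libraries, which overlapped. The fitted difference was 0.19 on the log2 scale, and -0.07 by family sum. For its own row it was 0.0283 without KO-labelled replicate 4 and 0.313 without KO-labelled replicate 1. Rps7, whose human counterpart is mutated in some Diamond-Blackfan families, had 39.1, 34.2, 38.8, 39.0 and 16.9 CPM in WT-labelled libraries and 20.9, 42.8, 37.7, 45.0 and 38.9 CPM in KO-labelled ones. One library of each group was low, WT-labelled replicate 5 and KO-labelled replicate 1. Its log2 fold change was 0.14, and -0.09 by family sum. The own-row value was -0.0185 without WT-labelled replicate 5, 0.299 without KO-labelled replicate 1, 0.0905 without replicate 2 and 0.071 without replicate 4. Rps13 had 2.28, 2.86, 3.68, 3.53 and 2.21 CPM in the KO-labelled libraries, which overlapped the WT-labelled values given above. Its log2 fold change was 0.11 by own row and -0.13 by family sum. The own-row value ran from 0.0208 without KO-labelled replicate 3 to 0.195 without KO-labelled replicate 1, and was 0.0391 and 0.194 without KO-labelled replicates 4 and 5 and 0.181 without WT-labelled replicate 4. Rpl27 had 29.1, 34.0, 33.8, 34.0 and 28.2 CPM in WT-labelled and 22.7, 32.2, 35.4, 47.5 and 31.6 CPM in KO-labelled libraries. KO-labelled replicates 1 and 4 were the lowest and highest of all 10. Its log2 fold change was 0.09 by own row and -0.08 by family sum, and the own-row value was -0.0534 without KO-labelled replicate 4, 0.214 without KO-labelled replicate 1 and 0.0575 without WT-labelled replicate 5. With limma's quality weights the own-row values were 0.0608 for Rpl30, 0.0456 for Rps13 and 0.0319 for Rpl27, and with the replicate block that of Rpl27 was 0.058. Without both KO-labelled replicate 4 and WT-labelled replicate 5 they were 0.0368 for Rpl30, -0.0972 for Rps7, -0.00494 for Rps13 and -0.0948 for Rpl27. No one of these passed an adjusted p of 0.05 in either form. The 25 members with under 50% of the family in their own row had log2 fold changes with an SD of 0.128, and the 32 tested members with over 90% had an SD of 0.039 and a median of -0.09.

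**Figure D5:**
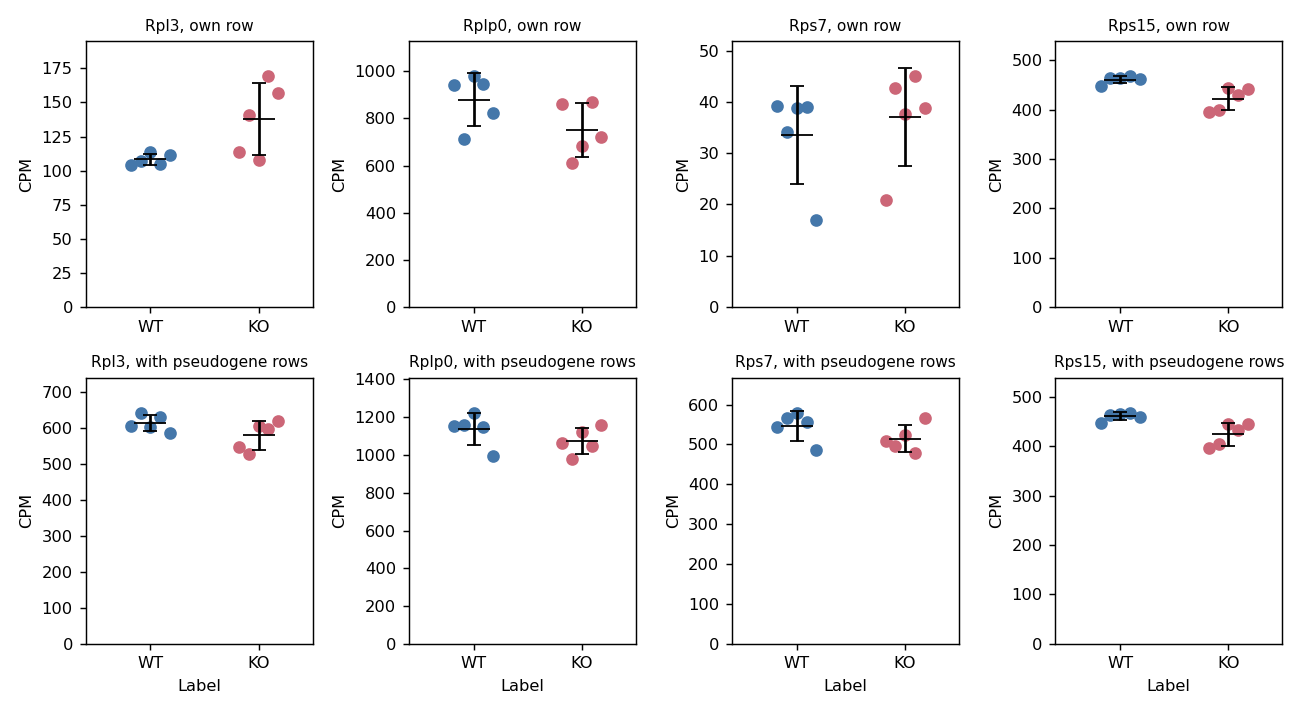
CPM of 4 members in each library, as own rows (top) and family sums (bottom), with bars at the mean ± SD of 5 libraries. Rps15 does not overlap between groups in either form, whereas the order of the Rpl3 group means differs between the forms.

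Rps15 was the 1 member whose groups did not overlap in the lower direction, against 0.701% of all genes, and 0 members did so in the higher direction, against 0.781%. It encodes a small-subunit protein near the decoding site, and 99.8% of its family sum was in its own row, chr10:80292453-80294114. WT-labelled libraries had 449, 464, 463, 468 and 461 CPM and KO-labelled libraries had 396, 399, 444, 430 and 442 CPM. The closest values of the 2 groups were 449 and 444 CPM. The log2 fold change was -0.13 ± 0.05 SE (edgeR p = 0.0379, adjusted p = 0.649), and the exact two-sided permutation p was 0.00794, the smallest that 5 libraries against 5 can give. By family sum 2 members, Rps15 and Rps28, did not overlap in the lower direction, against 0.621% of genes in that fit, and 0 did so in the higher direction, against 0.876%. Rps28 stood at 247, 242, 247, 252.1 and 241 CPM in WT-labelled and 213, 218, 236, 229.6 and 227 CPM in KO-labelled libraries (log2 fold change -0.13 ± 0.05 SE, edgeR adjusted p = 0.567).

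Among the lowest fold changes, Rplp0 led. It had 941, 712, 980, 945 and 823 CPM in WT-labelled and 862, 610, 683, 871 and 720 CPM in KO-labelled libraries, and the groups overlapped (log2 fold change -0.23 ± 0.12 SE, edgeR adjusted p = 0.671). Its family sums were 994 to 1224 CPM and 981 to 1157 CPM, a difference of -0.08 on the log2 scale. Rps27, a zinc finger protein of the small subunit with nearly all of its family sum in its own row, had 262, 267, 256, 251 and 239 CPM in WT-labelled libraries. In KO-labelled libraries it had 214, 224, 239, 195 and 244 CPM, with 3 of 5 below every WT-labelled value (log2 fold change -0.19 ± 0.07 SE, edgeR p = 0.0144, adjusted p = 0.557, exact two-sided permutation p = 0.0159). Rpl23, which binds MDM2 when ribosome assembly is disturbed, had 310, 286, 319, 319.5 and 347 CPM in WT-labelled and 207, 265, 300.5, 339 and 280 CPM in KO-labelled libraries (log2 fold change -0.18, edgeR adjusted p = 0.728). The groups overlapped, and the value was -0.0853 without KO-labelled replicate 1. Rpl9 had 187, 219.7, 210, 178 and 150 CPM in WT-labelled and 129, 179, 205, 131 and 193 CPM in KO-labelled libraries, which overlapped (log2 fold change -0.17, edgeR adjusted p = 0.816). Its value was -0.084 without KO-labelled replicate 1, -0.0899 without KO-labelled replicate 4 and -0.106 without WT-labelled replicate 2.

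Members were also read by role, and differences between roles were not tested. The 3 stalk proteins, which recruit translation GTPases, had log2 fold changes of -0.23 for Rplp0, -0.07 for Rplp1 and -0.08 for Rplp2. Without KO-labelled replicate 2 those of Rplp1 and Rplp2 were -0.0339 and -0.0514, and without replicate 1 that of Rplp2 was -0.0492. Without both KO-labelled replicate 4 and WT-labelled replicate 5 they were -0.122 and -0.152. Of the pair that carries 5S rRNA and restrains MDM2, Rpl11 stood at 133 ± 28.4 CPM and 118 ± 33.8 CPM and Rpl5 at 29.5 ± 3.42 CPM and 28.0 ± 3.84 CPM. Neither passed the test (edgeR adjusted p = 0.872 and 0.904). The log2 fold change of Rpl11 was -0.171 by own row and -0.0719 by family sum. Its own-row value was -0.0566 without KO-labelled replicate 1, -0.337 without KO-labelled replicate 4, and -0.0846 and -0.0798 without WT-labelled replicates 4 and 5. That of Rpl5 was -0.0732 by own row and -0.122 by family sum, and ran from -0.156 without KO-labelled replicate 2 to 0.000637 without WT-labelled replicate 3. A list of 13 members linked to Diamond-Blackfan anaemia was read, which need not hold every linked member and left out Rps27 and Rpl27. Of these 13, 12 were below 0, against 49.7% of all genes, 2 had an unadjusted p under 0.05, against 7.49%, and 0 passed. Their median was -0.09. Rpl15, among them, had 231 ± 6.02 CPM and 215 ± 8.84 CPM (edgeR adjusted p = 0.659). Of the 6 members known for skeletal or pigment phenotypes in mice, 4 were below 0, with a median of -0.04 by own rows and -0.0745 by family sums. Among them Rpl38, whose loss alters the axial skeleton, had 107 ± 2.79 CPM and 102 ± 18.9 CPM (edgeR adjusted p = 0.914). The 4 X-linked members were all below 0, with a median of -0.11.

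Genes that act with the ribosomal proteins were read from lists of their own. Of 17 translation factors and other mRNAs with a TOP element, 14 were below 0, against 49.7% of all genes, with a median of -0.05. None had an unadjusted edgeR p under 0.05, against 7.49% of all genes. Eif3h, a subunit of an initiation factor, had the lowest p (log2 fold change -0.11, edgeR adjusted p = 0.669). Summed over the list, the WT-labelled libraries held 11090 to 11480 CPM, and KO-labelled replicates 1 and 2, the pair in which most members were lowest, held 10120 and 9696 CPM, against 11390 to 11460 CPM in the other 3. Of 42 ribosome assembly factors, which work in the nucleolus, 15 were below 0 and the median was 0.03, with Mdn1 at 0.23 (edgeR adjusted p = 0.631). At an unadjusted edgeR p under 0.05, 3 of them were higher and 0 lower, against 7.49% of all genes in either direction. Of 12 genes of RNA polymerase I and Treacher Collins syndrome, 2 were below 0, with a median of 0.05. Tcof1, the main Treacher Collins gene, had 39.3 ± 1.58 CPM and 39.1 ± 3.07 CPM (edgeR adjusted p = 0.985).

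In the mTOR, S6 kinase and MYC list, 8 of 16 genes were below 0, and Rps6ka1, a kinase downstream of ERK, did not overlap between groups, with higher values in KO-labelled libraries (16.5 ± 0.642 CPM and 19.3 ± 1.30 CPM, edgeR adjusted p = 0.411), where 0.781% of all genes did so. Myc had 37.3 ± 4.05 CPM and 38.9 ± 5.53 CPM. Of 14 p53 targets, 9 were below 0, against 49.7% of all genes, with a median of -0.03. In this list 2 genes, Cdkn1a and Sesn2, were lower at an unadjusted edgeR p under 0.05 and 0 were higher, against 7.49% of all genes in either direction. None passed the adjusted threshold. Cdkn1a, which encodes the cell cycle inhibitor p21, had 61.8 ± 5.52 CPM and 47.8 ± 6.51 CPM (log2 fold change -0.37 ± 0.09 SE, edgeR adjusted p = 0.348). Of 78 mitochondrial ribosomal protein genes, which serve a separate ribosome, 56 were below 0, against 49.7% of all genes, with a median of -0.04. At an unadjusted edgeR p under 0.05, 2 of them were lower and 0 higher, against 7.49% of all genes, and 0 passed.

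Start-site letters were available in RefSeq (GRCm38.p6) for 63 of the 83 members, as 250 bases before and 50 after the annotated start. A C followed by 4 or more further C or T, beginning within 5 bases of the start, was found on the coding strand for 29 members (46%), against 21.2% of 27025 genes and 24.6% of 69 mitochondrial ribosomal protein genes. The letters CCGGAAG, on either strand of the 300 bases, were found for 26 members (41.3%), against 9.93% of all genes and 37.7% of the mitochondrial set. TATAAA within 50 bases before the start was found for 1 member, 1.59% against 3.15% of all genes. Annotated starts are not exact, and a match describes letters only.

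Markers of the cell types in the tissue were read in the same libraries. All 13 osteoblast markers were below 0, 8 of them at an unadjusted p under 0.05, against 7.49% of all genes, and 0 passing. Their summed level was 99960 to 117400 CPM in WT-labelled and 82540 to 119600 CPM in KO-labelled libraries. KO-labelled replicates 2 and 1 were the 2 lowest of all 10, but replicate 1, at 98560 CPM, stood near WT-labelled replicate 2, at 99960 CPM. The median sum was 113200 CPM in WT-labelled and 116800 CPM in KO-labelled libraries, although all 13 fitted changes were below 0. The sum mostly reflects its most abundant genes. Dmp1 and Alpl averaged only 524 and 504 CPM in WT-labelled libraries. The 4 fontanelle connective tissue markers were all above 0, each at an unadjusted p under 0.05 and 0 passing, at summed levels of 148 to 179 CPM and 199 to 278 CPM, which did not overlap. Of 16 tested skeletal muscle markers, 11 were below 0, with summed levels of 41.5 to 1108 CPM and 46.3 to 1152 CPM, highest in KO-labelled replicate 1. All 11 neuron markers were above 0, at 93.6 to 227 CPM and 98.4 to 722 CPM, highest in KO-labelled replicate 2. Of 9 macrophage and osteoclast markers 8 were below 0, at 2510 to 3920 CPM and 2762 to 3044 CPM. Erythroid (999 to 2526 and 903 to 1602 CPM), endothelial (466 to 594 and 494 to 595 CPM), epidermal (4.50 to 7.23 and 4.45 to 8.51 CPM) and proliferation markers (341 to 415 and 319 to 427 CPM) overlapped. No marker was at 0 in every library, and Myod1 and Epb42 were at 0 in at least 1. The part of these markers in the ribosomal protein levels was not tested.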

How the data were processed

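RNA-seq libraries were stranded (Kapa), read as single 50-base reads, from RNA with integrity over 8. The authors deposited estimated counts per gene, made with Partek on mm10 per the labels; aligner and annotation version are not given in the sources used here. Estimated counts need not be whole and were rounded. All 83 members had the GENCODE M21 positions. Genes were filtered with filterByExpr (16267 kept), scaled by TMM and tested with edgeR 4.0.16 quasi-likelihood in R 4.3.3, Benjamini-Hochberg adjusted over all of them. DESeq2 1.42.0 and limma 3.58.1 were alternatives. Exact permutation tests used log2 CPM with a prior count of 0.5. Family sums added rows sharing 50-base stretches or a name, refitted over 16092 genes. The fit was tested on simulated data. The members named with values in every library were the 5 highest and 5 lowest fold changes at a mean of 1 CPM or more and those without overlap; per-kilobase extremes were given as means. Some genes are counted but not reported here by name. Members and lists were chosen with earlier results of these data known.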

Additional observations from a re-analysis of the deposited data

Results flagged for a closer look

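A gap test between the most extreme library and the rest of its group marked 3 values among 38 groups of 5, and chance marks about 1 in 20. Rps7 in WT-labelled replicate 5 (16.9 CPM) was the lowest of its group, whose others had 34.2 to 39.1 CPM; its family sum there was 486 CPM, against 543 to 580 CPM. Rpl41 in WT-labelled replicate 4 (626 CPM) was the highest of its group, whose others had 569 to 580 CPM. Rpl5 in KO-labelled replicate 2 (34.7 CPM) was the highest of its group, whose others had 24.9 to 27.5 CPM; its family sum there was 659 CPM, within 626 to 825 CPM.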

How the results depend on the processing

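The median member log2 fold change stayed below 0 in all 23 settings, from -0.17 (the 1 tested member with mostly whole values, Rpl39l) to -0.05, and 0 members passed the adjusted threshold in any setting; adding matched pseudogene rows and leaving out both WT-labelled replicate 5 and KO-labelled replicate 4 were chosen after seeing the data. Genes called numbered 3 as reported, 98 with DESeq2's Wald test, and 1 with library size alone, with the replicate block, with Xist as a covariate and without those 2 libraries; leaving out 1 library gave 1 to 6. Members at an unadjusted p under 0.05 numbered 6 as reported, 2 with library size alone, 3 with no filter, 0 for the member with whole values, 13 without both libraries, and 3 to 14 when 1 library was left out (3 without WT-labelled replicate 3 or 4 or KO-labelled replicate 1 or 2, 14 without KO-labelled replicate 4); of all genes 7.49% as reported, 5.95% with library size alone, 7.01% with no filter, 6.35% without both libraries and 5.19 to 8.34% with 1 library left out had such a p. With the replicate block 6 members had an unadjusted p under 0.05, against 6.61% of all genes, and 3 of them were the same as without it. The median was then -0.09. By family sums these were 7 members, against 6.57% of all genes, with 6 of them the same, and 0 passed in either form. Same-numbered libraries did not deviate together (correlations -0.211 to 0.139). The labels do not say which libraries form the littermate pairs the study describes, so the numbers were not used as pairs. Named pseudogene rows turned the log2 fold changes of Rpl3 (-0.0835), Rpl30 (-0.0805), Rps7 (-0.0819), Rps13 (-0.127) and Rpl27 (-0.0534) below 0, and matched rows gave -0.0834, -0.074, -0.0864, -0.127 and -0.0846; by construction these sums are set by rows larger than the own row. Without both libraries Rps7 (-0.0972), Rps13 (-0.00494) and Rpl27 (-0.0948) were below 0; the cause was not tested. With 1 library left out, Rpl5 ran from -0.156 to 0.00064 (highest without WT-labelled replicate 3), Rps7 from -0.0185 (without WT-labelled replicate 5) to 0.299 and Rpl27 from -0.0534 (without KO-labelled replicate 4) to 0.214. The difference in the share of counts moved from -0.174 percentage points to -0.00011 for the 2 members with whole values, and ran from -0.241 to -0.100 with 1 library left out.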
